A study of Mus musculus with 4 samples.

Results

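Western diet was compared with chow in the aorta of C57BL/6 apoE-/- mice (B6), the strain labelled as having atherosclerosis. The arrays titled B6 Western and B6 chow were used, 2 of the 4 arrays of the series, and each gene's difference is the log2 intensity on the B6 Western array minus that on the B6 chow array. The mice of both groups lack apolipoprotein E, were weaned onto chow at 3 weeks of age, and from 4 weeks of age either stayed on chow or ate Western diet for 2 weeks. The other 2 arrays hold aorta of Ath29 congenic mice, labelled as resistant to atherosclerosis, on the same diets. Their own difference (Western minus chow) is set beside the B6 values, and the labels do not give the apoE genotype of these mice. No group has more than 1 array, so no difference can be tested, and 2-fold stands in for a threshold, and "higher" and "lower" describe these arrays. How many mice stand behind each array is not given.

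Apolipoprotein E lets the liver clear lipoprotein remnants from blood, and mice without it become strongly hypercholesterolaemic, more so on a diet rich in fat and cholesterol. Lipoproteins held in the vessel wall draw in monocytes, which become macrophages, take up cholesterol and turn into foam cells. Sterol-loaded cells switch on cholesterol export through liver X receptors and switch off their own cholesterol synthesis through SREBP2. The mouse aorta is wrapped in fat, much of it brown in character around the thoracic part, and its root joins the heart.

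Of 45101 probe sets 64 are controls. Of the others, those whose mean log2 intensity over the 4 arrays was above that of 27.4 units, the median of all of them, were kept, and each gene was read from its brightest probe set. This left 11718 genes. Values below 27.4 on an array are not told apart from background here, so a difference against one is called not exact. Values below 9.59 were raised to it before the mean was taken, so a difference against one is a bound. A gene that was dim on chow could pass the filter through the Western arrays where it was high, so counts and medians of a list cover the measured members alone and are descriptions. Contractile smooth muscle genes such as Acta2, at 11271 and 10636 units in B6 chow and B6 Western, were far above this filter. Liver is named in the extraction protocol, but of 25 hepatocyte genes 15 lay below the filter, among them Ttr and Apoa1. Alb read 33.7 on chow and 54.5 on Western diet in B6 mice. Another member, Cyp2e1, lay far above the filter, at 2542 on chow and 4852 on Western diet in B6 mice. On the Ath29 arrays Cyp2e1 read 4559 on chow and 2866 on Western diet. The B6 Western array stood apart. The summed intensity of 18 heart muscle genes was 17731 there, while the B6 chow array gave 1663 and the Ath29 arrays gave 1249 on chow and 1118 on Western diet. Since aorta was measured in bulk, a change in the number of cells of a type cannot be told apart from a change in RNA per cell.

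In B6 mice 482 genes were at least 2-fold higher on Western diet (4.11% of the genes compared) and 137 at least 2-fold lower (1.17%). The median difference of all genes was -0.06 on the log2 scale, and the central 95% of genes lay between -0.81 and 1.26. Of the higher genes 388 had both B6 values above 27.4, and of the lower genes 82 had. The lower genes thus rested on values near background more than the higher ones did. Of the 482 higher genes, 51 belong to lists of muscle, fat or mitochondrial genes, 30 to immune lists and 386 to none of the 40 gene lists used here. Of the 137 lower genes, 132 belong to no list. Most of the 11718 genes compared belong to no list either, so that count is no trait of the lower genes. With the muscle, fat and mitochondrial lists left out, 11605 of the 11718 genes remained.

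**Figure D1:**
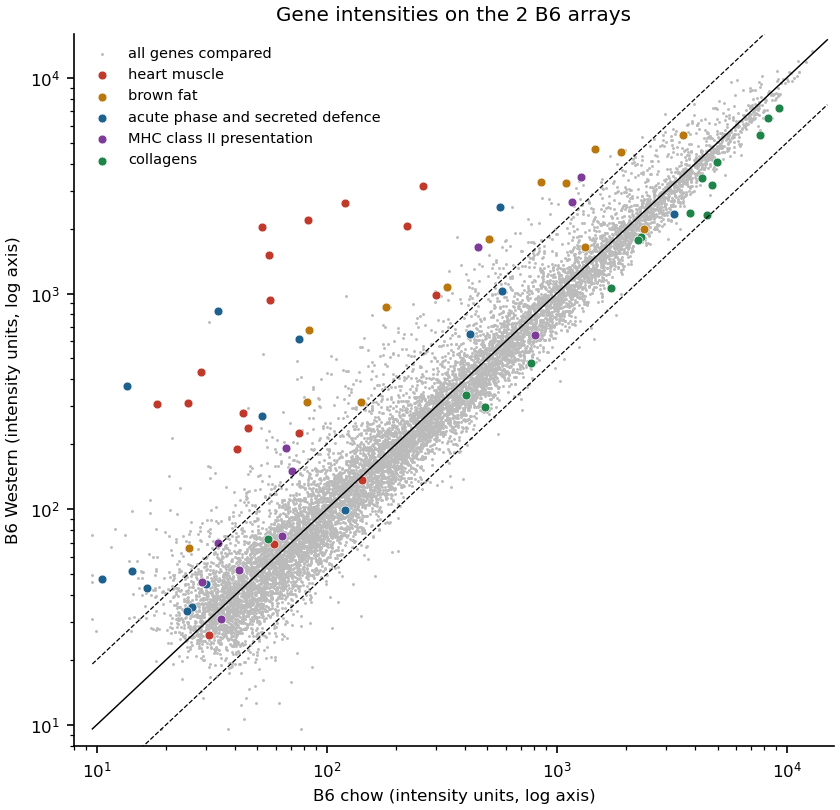
Intensity of each of the 11718 genes on the B6 chow array (horizontal, log axis) and the B6 Western array (vertical, log axis), with values below 9.59 drawn at 9.59, the solid line at equality and the dashed lines at 2-fold. Heart muscle, brown fat, acute phase and MHC class II genes lie mostly above the diagonal, and all collagen genes but Col12a1 lie below it.

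The only spread these data give for a difference is that between probe sets that read the same gene on the same arrays, and it holds no spread between mice. Over 4663 genes with at least 2 kept probe sets, the median SD of a gene's log2 differences was 0.22 and the 95th percentile 0.70. Of 130 genes at least 2-fold higher with another kept probe set, 64 had a further probe set at least 2-fold higher, and in 26 another probe set had the opposite sign. Of 32 lower genes with another kept probe set, 6 had a further probe set at least 2-fold lower, and in 7 another had the opposite sign. A further probe set past 2-fold was thus found for 49.2% of the higher genes and for 18.8% of the lower ones.

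**Figure D2:**
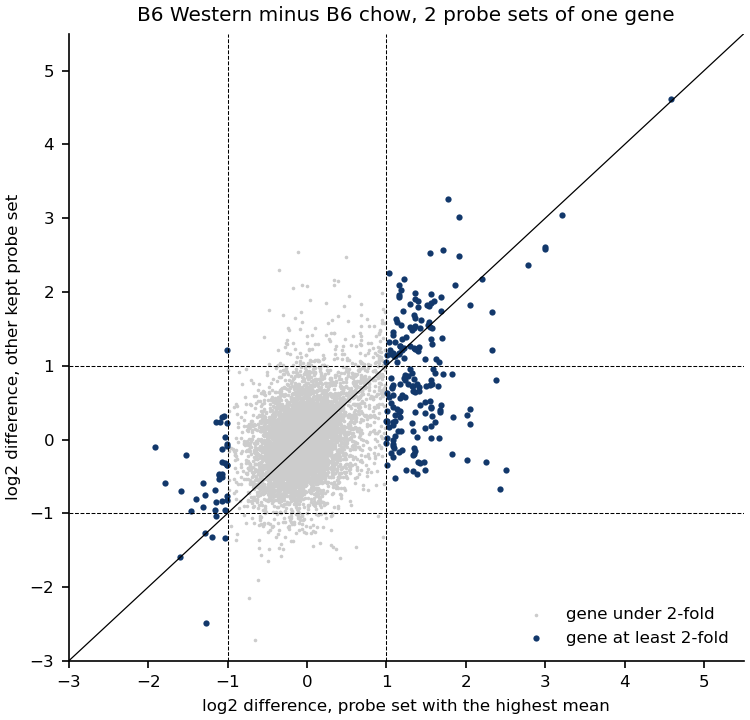
Log2 difference (B6 Western minus B6 chow) of the probe set each gene was read from (horizontal) against that of another kept probe set of the same gene (vertical), with the solid line at equality and the dashed lines at 2-fold. Genes at least 2-fold different (dark points) extend to 4.59 with a second probe set of Myom2 at 4.62, and many lie nearer to 0 on the vertical axis than on the horizontal one.

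Acute phase and secreted defence genes, which cells make in response to inflammatory signals, held some of the largest differences. Of 25 listed, 15 were measured, with 8 at least 2-fold higher (4.11% of all genes were), 0 at least 2-fold lower and a median of 1.38. The median over all genes was -0.06. This list, like the others, was written with earlier results of these data known, so the comparison with all genes is a description. Of the 8, 4 had a chow value below 27.4, and the median was 0.60 with no filter and 0.74 with the filter on the B6 arrays alone. Ptx3, a long pentraxin of innate immunity, read 33.9 on chow and 834 on Western diet in B6 mice, 24.6-fold higher. Saa3, a serum amyloid A made outside the liver, read 75.9 on chow and 613 on Western diet, 8.07-fold higher. Ptx3 and Saa3 were named for the size of their differences, so their place outside the central 95% of genes follows from that choice. Hp, the haemoglobin-binding haptoglobin, read 569 on chow and 2507 on Western diet, 4.41-fold higher. Wfdc21 read 52.2 on chow and 269 on Western diet, 5.15-fold higher. Fgl1, a secreted fibrinogen-like protein, read 13.5 on chow and 374 on Western diet, so its log2 difference of 4.79 starts from background. The same holds for the macrophage chitinase-like gene Chil3 (2.17), Orm1, an acute phase glycoprotein (1.86), and Serpina3n, a protease inhibitor (1.38). Members under 2-fold included the copper protein Cp (0.83), the cytokine signalling inhibitor Socs3 (0.64) and the interleukin 1 antagonist Il1rn (0.60). Lbp, which binds bacterial lipopolysaccharide (-0.28), and Fgl2 (-0.47) lay below 0. The classical liver members Saa1, Saa2, Apcs and Hpx lay below the filter. In the Ath29 pair the list median was 1.32, with 9 of 15 at least 2-fold higher (1.33% of all genes), and Ptx3 was 4.04-fold and Saa3 2.5-fold higher.

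Chemokines and cytokines guide leukocytes into tissue. Of 33 listed, 16 were measured, with 7 at least 2-fold higher (4.11% of all genes were), 0 lower and a median of 0.52. Of the 7, 3 had a chow value below 27.4, and the median was 0.13 with no filter and 0.22 with the filter on the B6 arrays alone. Cxcl1, which attracts neutrophils, read 237 on chow and 896 on Western diet, 3.78-fold higher, and its 2 other probe sets gave larger log2 differences of 3.02 and 2.49. Its relative Cxcl2 read 11.6 on chow and 66.9 on Western diet, with the chow value in the range of background. Ccl8, a monocyte chemokine, read 87.5 on chow and 369 on Western diet, 4.22-fold higher. The neighbouring myeloid chemokine genes Ccl9 and Ccl6 had log2 differences of 1.64 and 1.54. Ccl9 read 313 on chow and 973 on Western diet and Ccl6 656 on chow and 1908 on Western diet, and a second Ccl6 probe set gave 1.81. Il6, a main inducer of acute phase genes, lay below the floor on chow and at 30.9 on Western diet, a log2 difference of at least 1.69. The B cell chemokine Cxcl13 read 17.0 on chow and 96.4 on Western diet, but another kept probe set gave -0.41. Il33, an alarm cytokine of the vessel wall, had 0.71, and Cxcl12, which retains leukocytes, -0.25. The monocyte chemokine Ccl2 read 3.52 and 2.26 and the cytokine Tnf 15.2 and 3.8, below the filter on every array. Ath29 mice had 5 of the 16 at least 2-fold higher (1.33% of all genes were), with a median of 0.51.

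Many of these genes are known targets of NF-kappaB, an inflammatory transcription factor, so the 250 bases before the RefSeq start (GRCm38.p6) were searched on both strands for its consensus. Of the 15 genes of the acute phase and chemokine lists that were at least 2-fold higher, 11 had a promoter in the table. Of these 11, 4 held a match, Cxcl1, Cxcl2, Il6 and Ccl9, as did 3.90% of all 32851 promoters searched. The genes were picked for being higher, so these shares are no test of enrichment. Cxcl2 and Il6 passed the filter only through the Western arrays. A part of NF-kappaB in the differences was not tested. The promoters of the 3 genes with the largest differences that the table holds, Ptx3, Saa3 and Cxcl2, are shown 5′ to 3′ on the gene's strand, with matches in capitals. Cxcl1 and Il6 are added because they hold matches.
Ptx3: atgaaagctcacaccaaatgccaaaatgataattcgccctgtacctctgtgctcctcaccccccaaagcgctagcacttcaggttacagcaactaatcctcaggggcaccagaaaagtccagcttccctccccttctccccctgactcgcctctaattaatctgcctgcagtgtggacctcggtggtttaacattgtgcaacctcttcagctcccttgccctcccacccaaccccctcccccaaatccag
Saa3: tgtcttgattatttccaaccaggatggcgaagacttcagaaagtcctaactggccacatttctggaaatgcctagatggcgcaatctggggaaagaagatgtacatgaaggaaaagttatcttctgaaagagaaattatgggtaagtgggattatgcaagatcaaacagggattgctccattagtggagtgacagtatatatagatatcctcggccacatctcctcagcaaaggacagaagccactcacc
Cxcl2: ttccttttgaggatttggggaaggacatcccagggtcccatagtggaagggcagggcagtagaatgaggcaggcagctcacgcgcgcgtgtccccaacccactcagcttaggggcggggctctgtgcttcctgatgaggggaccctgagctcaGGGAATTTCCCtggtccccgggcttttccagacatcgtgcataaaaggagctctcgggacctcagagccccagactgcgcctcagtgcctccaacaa
Cxcl1: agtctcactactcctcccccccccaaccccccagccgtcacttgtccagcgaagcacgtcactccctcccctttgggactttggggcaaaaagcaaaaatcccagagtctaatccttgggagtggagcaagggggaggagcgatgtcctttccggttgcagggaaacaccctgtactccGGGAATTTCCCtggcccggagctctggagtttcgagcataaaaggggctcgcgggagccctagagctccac
Il6: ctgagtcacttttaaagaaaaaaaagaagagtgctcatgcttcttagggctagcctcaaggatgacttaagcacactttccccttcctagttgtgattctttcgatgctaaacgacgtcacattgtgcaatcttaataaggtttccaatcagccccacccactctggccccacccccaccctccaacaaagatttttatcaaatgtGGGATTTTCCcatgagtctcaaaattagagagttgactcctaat
They lie at chr3:66219637-66219886 (plus strand), chr7:46715677-46715926 (minus strand), chr5:90903649-90903898, chr5:90890995-90891244 and chr5:30012864-30013113 (all 3 plus strand). Cxcl1 and Cxcl2 share the same run GGGAATTTCCC, which matches on both strands and overlaps itself there, from base -71 in Cxcl1 and from base -97 in Cxcl2. The Il6 match GGGATTTTCC starts at base -44. A match describes the letters only, and Ptx3 and Saa3 held none in this window.

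**Figure D3:**
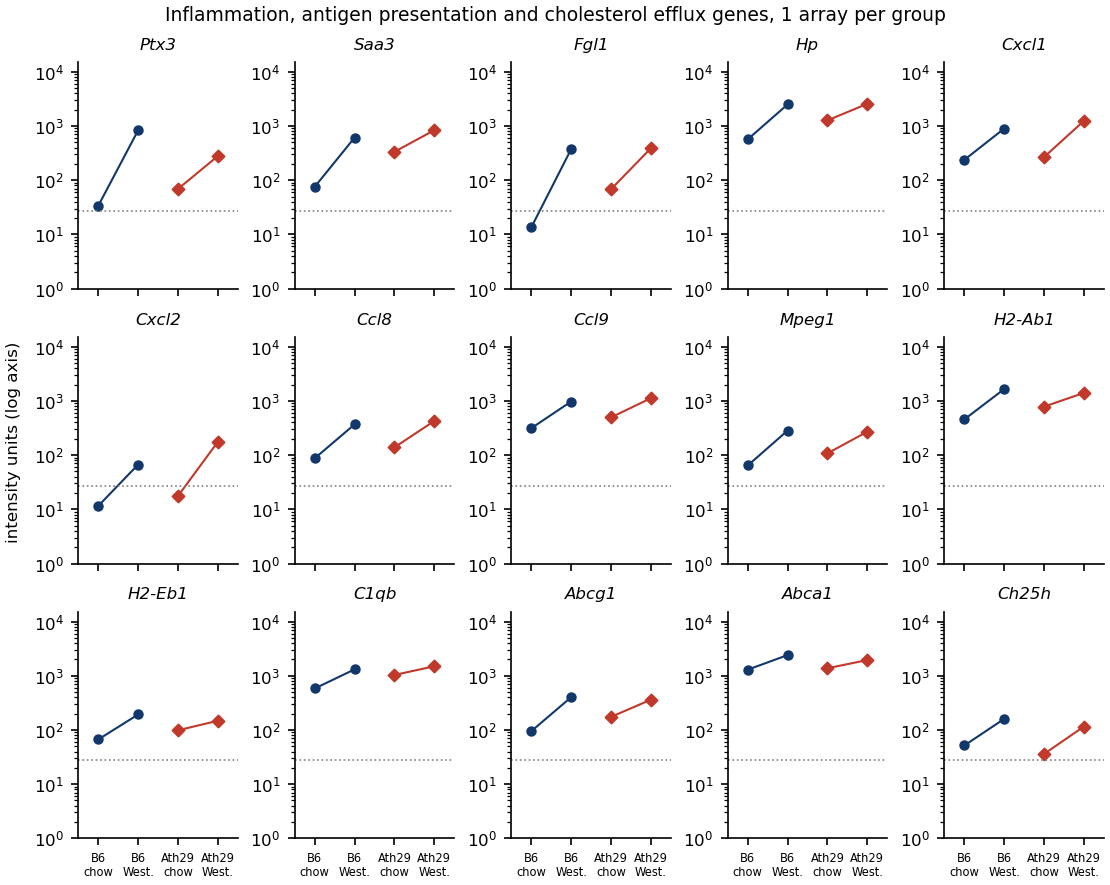
Intensity (log axis) of 15 genes of inflammation, antigen presentation and cholesterol efflux on the 4 arrays, 1 point per array, B6 in blue circles and Ath29 in red diamonds, with lines joining the diets of a strain and a dotted line at 27.4. Each gene is higher on Western diet in both pairs, and B6 chow holds the lowest value for all of them but Ch25h, which is lowest in Ath29 chow.

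Macrophage genes were higher throughout. Of 22 listed, 17 were measured, and all 17 lay above 0 (43.4% of all genes did). At least 2-fold higher were 6 (4.11% of all genes were), and the median was 0.87. Mpeg1, a pore-forming protein of macrophages, read 64.3 on chow and 284 on Western diet, 4.41-fold higher. The complement recognition gene C1qb read 582 on chow and 1312 on Western diet, 2.25-fold higher. Its 2 other probe sets gave 1.26 (not exact) and 1.27 on the log2 scale. Mpeg1 and C1qb were named for the size of their differences, so exceeding the usual spread between probe sets lends them no support. Tyrobp, a signalling adaptor of myeloid receptors, read 384 on chow and 907 on Western diet, 2.36-fold higher, and Fcgr3, an antibody receptor, 45.5 on chow and 108 on Western diet, 2.36-fold higher. Gpnmb, a glycoprotein of lipid-laden macrophages, read 121 on chow and 283 on Western diet, 2.35-fold higher. Ctss, a lysosomal protease of antigen-presenting cells, read 1280.2 on chow and 3454 on Western diet, 2.7-fold higher. Summed over the 17 genes, the B6 arrays gave 11579 on chow and 20601 on Western diet, and the Ath29 arrays 13406 and 20143, so both Western arrays lay above both chow arrays. Smaller differences were found for Lyz2, the lysozyme of myeloid cells (0.89), Cd68 (0.87), the scavenger receptor Cd163 (0.86), the growth factor receptor Csf1r (0.55) and Adgre1, which encodes F4/80 (0.51). The members below the filter were Cd14, Fcgr1, Fcer1g, Aif1 and Cx3cr1. All 17 were above 0 in the Ath29 pair as well (6588 of all 11718 genes were), with a median of 0.67. At least 2-fold higher there were 3 (1.33% of all genes were).

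Genes of MHC class II presentation, which shows peptides to helper T cells, had a median of 1.05 over 11 measured of 14 listed. It was 0.67 with no filter. Of the 11, 6 were at least 2-fold higher (4.11% of all genes were) and 0 lower. Among the 6 is Ctss, also counted among the macrophage genes. H2-Ab1 read 454 on chow and 1649 on Western diet, 3.63-fold higher, H2-Eb1 66.8 on chow and 193 on Western diet and H2-Aa 1167 on chow and 2655 on Western diet. The 3 other probe sets of H2-Aa gave 2.03, 1.55 and 0.12. All 3 of these genes encode chains of the class II molecules themselves. The invariant chain Cd74 (1.05) and the costimulatory ligand Cd86 (1.09) were also past 2-fold, while Ciita, the master regulator of the pathway (-0.15), and Ifi30, a lysosomal reductase (-0.32), lay below 0. Of these 11 genes 1, Ctss, was at least 2-fold higher in Ath29 mice (1.33% of all genes were), and the median of the 11 there was 0.36. The difference between the strains was not tested. Of 11 measured complement genes 3 were at least 2-fold higher (4.11% of all genes were). They were C1qb, also counted among the macrophage genes, the complement inhibitor Cd55 (1.17) and the receptor C3ar1 (1.01). The complement median was 0.50 (0.22 with the filter at the 75th percentile), and another Cd55 probe set gave 0.39.

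Other leukocyte lists differed less, apart from mast cells. Over 7 measured neutrophil genes the median was 0.04, with 0 past 2-fold, S100a8 at 173 on chow and 187 on Western diet and Mpo at 94.8 on chow and 72.2 on Western diet. Of 16 T and NK cell genes only 4 were measured. Their median of 0.11 turned to -0.15 with the mean of a gene's probe sets and to -0.53 with probe sets that may bind several transcripts left out, and the T cell receptor genes Cd3d, Cd3e and Cd3g lay below the filter. Of 9 measured B and plasma cell genes 1 was 2-fold higher (4.11% of all genes were), Jchain (at least 2.37, from the floor). Lower was 1 (1.17% of all genes were), Igha (-1.27, not exact). The mast cell genes Hdc, which makes histamine, and Cpa3, a granule protease, read 33.0 on chow and 102 on Western diet and 55.2 on chow and 164 on Western diet respectively, 3.1-fold and 2.96-fold higher. Their list of 6 measured genes had a median of 0.70 (0.30 with no filter), with Gata2 at -0.44. Platelet genes had a median of -0.39 over 7 (-0.65 with the filter at the 75th percentile). Of the 7, 6 were below 0 (56.6% of all genes were), with Ppbp at -0.99 and Pf4 at -0.03. Interferon response genes had a median of 0.16 over 23 (0.43 with the filter at the 75th percentile), with 0 past 2-fold, and the largest were Oas2, an antiviral synthetase (0.93), and Rsad2, which encodes viperin (0.90).

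**Figure D4:**
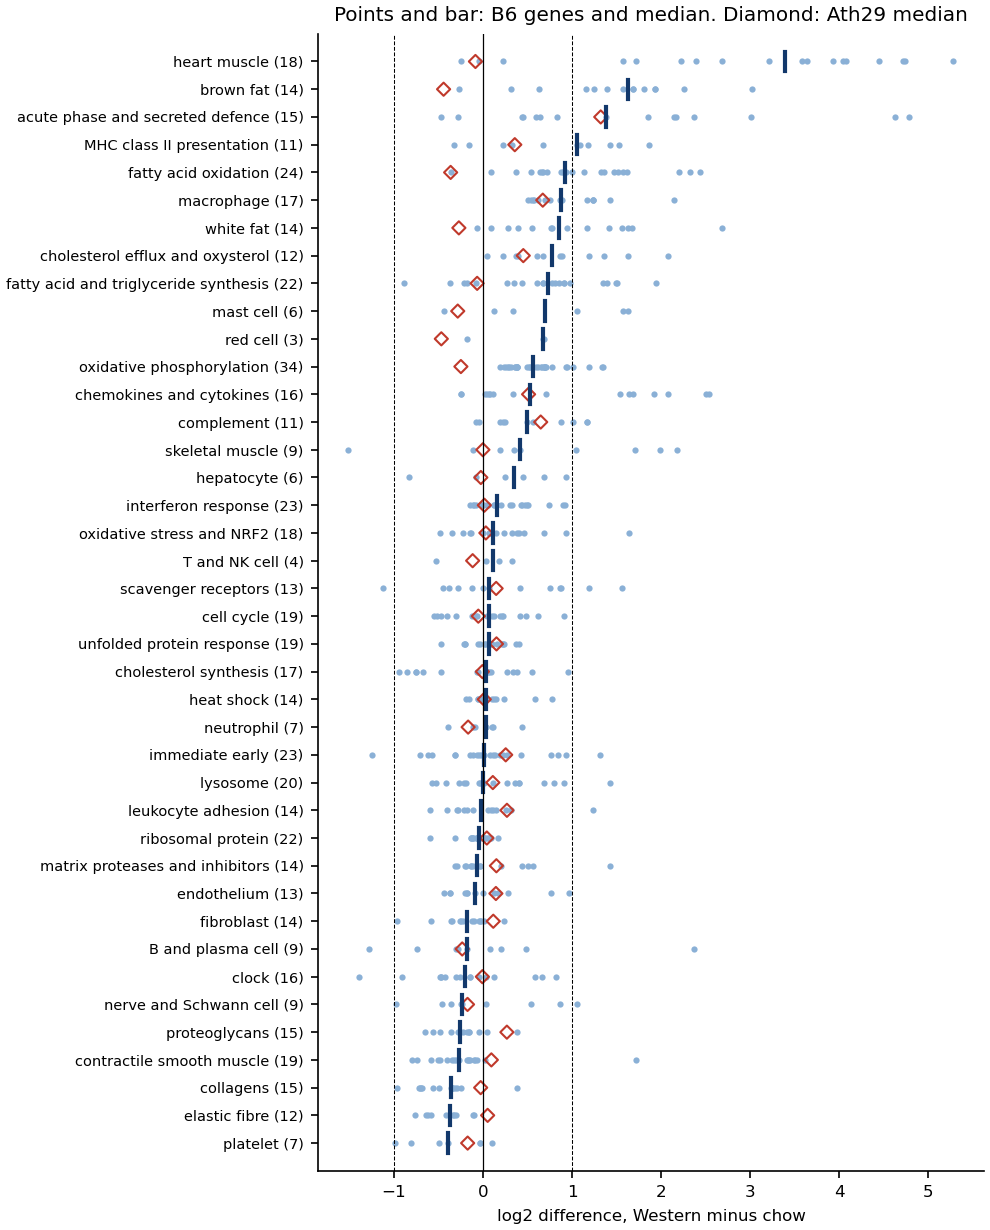
Log2 difference, Western minus chow, for the 40 gene lists, with the number of measured genes in brackets: small points are genes in B6 mice, the bar is their median, the open diamond is the Ath29 median of the same genes and the dashed lines mark 2-fold. Heart muscle (3.40) and brown fat (1.63) have the highest B6 medians with Ath29 medians below 0, while acute phase genes have 1.38 and 1.32.

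Genes of cholesterol efflux and oxysterol response were all above 0 on Western diet (43.4% of all genes were). Of 18 listed, 12 were measured, with 4 at least 2-fold higher (4.11% of all genes were) and a median of 0.77. Abcg1, which exports cholesterol to HDL, read 94.9 on chow and 401 on Western diet, 4.23-fold higher. Abca1, which exports it to apolipoprotein A-I, read 1295 on chow and 2403 on Western diet, 1.86-fold higher. Both are classical liver X receptor targets. Other such targets were the phospholipid transfer protein Pltp (0.61), the lipogenic regulator Srebf1 (0.67) and Mylip, which degrades the LDL receptor (0.37). Ch25h, which makes an oxysterol, read 51.7 on chow and 159.6 on Western diet, 3.09-fold higher. Apod, a lipid-binding apolipoprotein, read 98.2 on chow and 252 on Western diet, 2.57-fold higher, and its other probe set gave 1.91. The HDL receptor Scarb1 read 600.2 on chow and 1369.9 on Western diet, 2.28-fold higher, with other probe sets at 1.21 and 1.36. In the Ath29 pair Abcg1 (1.06), Ch25h (1.68) and Apod (1.39) were also past 2-fold, while Scarb1 was -0.36.

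Cholesterol synthesis genes had a median of 0.04 over 17 measured of 24 listed, with 0 past 2-fold in either direction, but they were spread to both sides. Below 0 were Msmo1, a sterol oxidase (-0.94), the sterol transporter Stard4 (-0.85), the squalene epoxidase Sqle (-0.75), Hsd17b7 (-0.75), the isomerase Idi1 (-0.68) and the demethylase Cyp51 (-0.47). Above 0 were the squalene synthase Fdft1 (0.95), with another probe set at 1.77, and Insig1, a sterol sensor (0.55). Fdft1 read 1927 on chow and 3735 on Western diet, and Msmo1 80.3 on chow and 41.9 on Western diet. The first enzyme of the pathway measured here, Hmgcs1, read 2806 on chow and 2915 on Western diet, and the regulator Srebf2 147 on chow and 140.4 on Western diet. Second probe sets of Stard4 and Idi1 gave -0.93 (not exact) and -0.92, that of Hsd17b7 0.12. In the Ath29 pair the 17 genes ran with a median of -0.01, Sqle at 0.53, Stard4 at -0.09 and Idi1 at -0.23. Lysosomal genes, which handle internalised lipoproteins, had a median of 0.00 over 20, with 11 above 0 and 9 below. Above it were Ctss, past 2-fold, the phosphatase Acp5 (0.91) and the acid lipase Lipa (0.80), and below it the proton pump subunit Atp6v0d2 (-0.57) and the proteases Lgmn (-0.53) and Ctsh (-0.41). Among 13 measured scavenger receptors Cd36, which binds oxidised lipoproteins and fatty acids, was 2.95-fold higher and Scarb1 2.28-fold higher, Msr1 had 0.42, and Stab2 was lower (-1.13, not exact). Cd36 is also in the white fat list, and in the Ath29 pair it had -0.52.

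Brown fat genes were higher on Western diet, 11 of 14 measured by at least 2-fold (4.11% of all genes were), with a median of 1.63. Elovl3, a fatty acid elongase of active brown fat, read 83.9 on chow and 679 on Western diet, 8.1-fold higher. Cidea, a lipid droplet protein, read 509.9 on chow and 1790.1 on Western diet, 3.51-fold higher, and Ppargc1a, a coactivator of mitochondrial biogenesis, 141 on chow and 315 on Western diet, 2.23-fold higher. These 3 genes were past 2-fold, but the gene that defines heat production in brown fat was not. Ucp1, the uncoupling protein of brown fat, read 3526 on chow and 5453 on Western diet, 1.55-fold higher, and the thyroid hormone enzyme Dio2 had 0.32. Prdm16, a regulator of brown fat identity, lay below 0 (-0.26). White fat genes had a median of 0.86 over 14, with 6 at least 2-fold higher (4.11% of all genes were). Among the 6 were Pparg, the regulator of fat cell formation (1.67), Cebpa (1.63), the droplet gene Cidec (1.41) and the lipase Lipe (1.17). Adipoq, which encodes adiponectin, read 3144 on chow and 5359 on Western diet, and Fabp4, a fatty acid carrier, 9062 on chow and 9688 on Western diet. The leptin gene Lep read 5.5 and 1.33, below the filter. The summed intensity of the brown fat list was 13926 on chow and 29958 on Western diet in B6 mice, while the Ath29 arrays gave 24004 and 18571, so B6 chow was the lowest and B6 Western the highest of the 4 arrays. For the white fat list the sums were 32736, 45696, 41212 and 36429, in the same order.

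Lists of fuel metabolism, which fat and heart also express strongly, were higher too, and the part of fat and heart signal in these differences was not tested. Fatty acid oxidation genes had a median of 0.92 over 24 measured of 27 listed. Of these, 11 were at least 2-fold higher (4.11% of all genes were) and 1, Cpt1a (-0.35), lay below 0. Ppara, a receptor that drives these genes, read 31.2 on chow and 157 on Western diet, 5.02-fold higher. Its 2 other probe sets gave 1.73 and 1.22, neither exact. Ehhadh, a peroxisomal enzyme of the pathway, read 188 on chow and 864 on Western diet, 4.6-fold higher. The electron transfer gene Etfdh had 1.62, the carnitine enzyme Cpt2 1.57 and the dehydrogenase Acadvl 1.13. Ucp3, a mitochondrial carrier, had 2.43, but a second probe set gave -0.67, not exact, from 28.7 on chow and 18.1 on Western diet. All 24 genes were below 0 in the Ath29 pair (43.8% of all genes were), with a median of -0.36. The direction in the pairs was thus opposite, and the difference between strains was not tested. Oxidative phosphorylation genes were above 0 in all 34 of 34 measured (43.4% of all genes were). Their median was 0.56 (0.86 with probe sets that may bind several transcripts left out), and 4 were at least 2-fold higher (4.11% of all genes were). These were the complex III subunits Uqcrq (1.35, other probe sets -0.11, 1.52 and, not exact, 0.82) and Uqcrc1 (1.01), the complex I subunit Ndufs1 (1.19) and the ATP synthase subunit Atp5b (1.33). Of these 34 genes 32 were below 0 in the Ath29 pair (43.8% of all genes were), with a median of -0.25. Fatty acid and triglyceride synthesis genes had a median of 0.73 over 22, with 5 at least 2-fold higher (4.11% of all genes were). These were Acacb (1.94), the elongase Elovl6 (1.51), the lipogenic gene Thrsp (1.35), Pnpla3 (1.40) and Dgat1 (1.49), which makes triglyceride. The other Dgat1 probe set gave -0.42, not exact, from 32.2 on chow and 24.1 on Western diet. Fasn, the fatty acid synthase, read 2515 on chow and 3835 on Western diet, and the desaturase Fads1 was the lowest (-0.88).

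**Figure D5:**
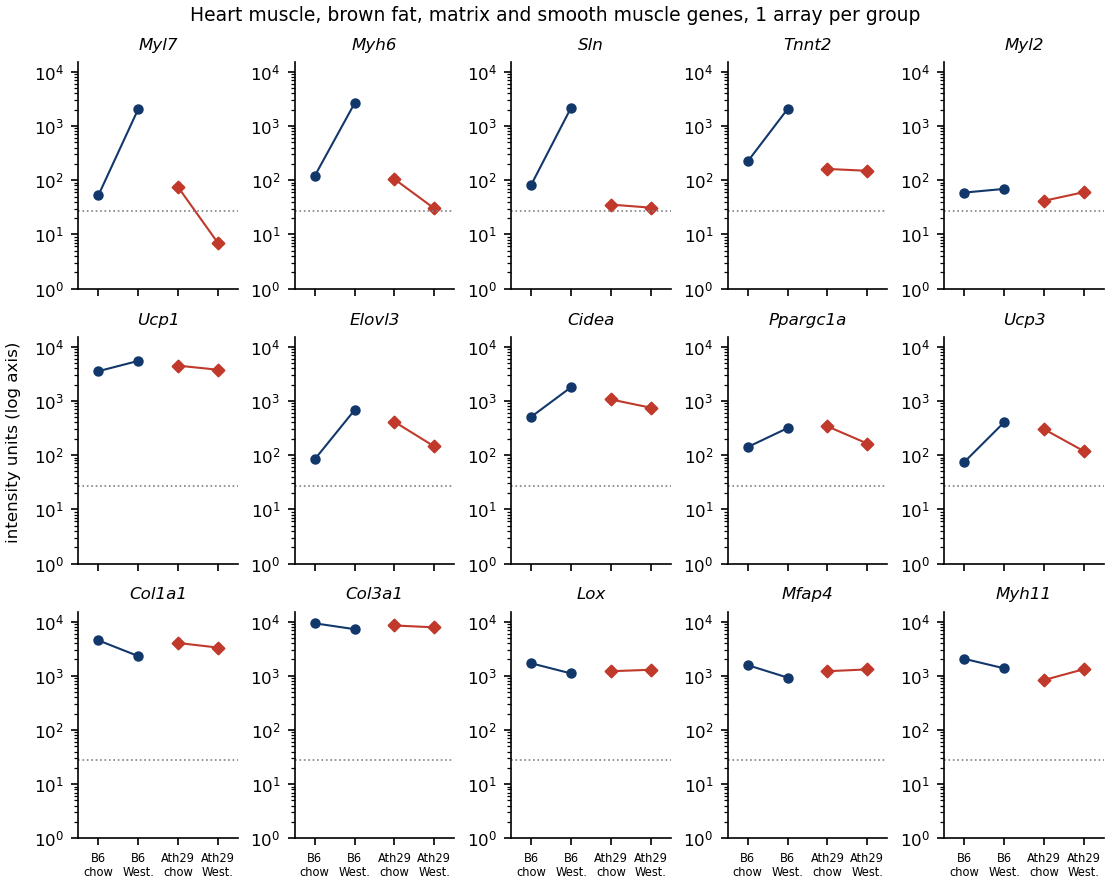
Intensity (log axis) of 15 heart muscle, brown fat, matrix and smooth muscle genes on the 4 arrays, 1 point per array, B6 in blue circles and Ath29 in red diamonds, with lines joining the diets of a strain and a dotted line at 27.4. Myl7, Myh6, Sln and Tnnt2 stand highest in B6 Western, Myl2 lies at 59.2, 69.2, 41.7 and 60.2 from left to right, and Col1a1 is lowest in B6 Western.

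Heart muscle genes had the highest median of the 40 lists. Of 20 listed, 18 were measured, 15 were at least 2-fold higher (4.11% of all genes were) and the median was 3.40. Myl7, the atrial regulatory light chain, read 52.3 on chow and 2039 on Western diet, Sln, which inhibits the calcium pump, 83.0 on chow and 2191 on Western diet, and Myl4, the atrial essential light chain, 263 on chow and 3160.2 on Western diet. Nppa, the atrial natriuretic peptide gene, lay below the filter by its mean log2 value but read 241 in B6 Western against 6.33, 6.14 and 13.6 on the other arrays. The ventricular light chain Myl2 read 59.2 on chow and 69.2 on Western diet, a log2 difference of 0.23. The slow myosin Myh7 read 30.9 on chow and 26.0 on Western diet, in the range of background. Of genes of both chambers, the myosin Myh6 read 121 on chow and 2639 on Western diet, the troponin T gene Tnnt2 223 on chow and 2065 on Western diet, with a second probe set at 3.05, and myoglobin (Mb) 56.2 on chow and 1503 on Western diet. Myom2, an M-band protein of striated muscle that is in no list, read 30.8 on chow and 741 on Western diet. Of the same 18 genes in Ath29 mice, 0 were at least 2-fold higher (1.33% of all genes were). Lower were 3 (0.853% of all genes were), Myl7, Mb and Myh6, and the median was -0.08. Of 9 measured skeletal muscle genes 4 were at least 2-fold higher (4.11% of all genes were), led by Eno3, a muscle enolase (2.18). Lower was 1 (1.17% of all genes were), the calcium buffer Casq1 (-1.51), while 12 of 21, among them Acta1 and Ckm, lay below the filter.

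Genes of the vessel wall itself were mostly lower on Western diet by small amounts. All 12 measured elastic fibre genes were below 0 (56.6% of all genes were), with a median of -0.37 and 0 past 2-fold. Mfap4, a microfibril protein, read 1566 on chow and 923 on Western diet, 1.7-fold lower, and Lox, which crosslinks elastin and collagen, 1693 on chow and 1101 on Western diet, 1.54-fold lower, though another Lox probe set gave 0.21. Eln itself read 3543 on chow and 3279 on Western diet. The latent TGF-beta binding genes Ltbp2 (-0.64), Ltbp3 (-0.38) and Ltbp1 (-0.32) and the fibulin Fbln5 (-0.31) lay between Mfap4 and Eln. Collagens had a median of -0.36 over 15 (-0.62 with probe sets that may bind several transcripts left out), with 14 below 0. Col1a1 read 4494 on chow and 2305 on Western diet, 1.95-fold lower, and Col3a1 9259 on chow and 7218 on Western diet, 1.28-fold lower, with a second probe set at -0.77. The basement membrane collagen Col4a2 had -0.69, Col6a3 -0.71, Col15a1 -0.71, and Col5a1 -0.68. Outside the list, and named after their values were seen, the basement membrane collagens Col4a3 and Col4a4 were 2.42-fold and 2.43-fold lower. Each of these differences lies within 2-fold except the last pair. Proteoglycans had a median of -0.26, with 13 of 15 below 0, Vcan, which binds lipoproteins, at -0.56, and Bgn at -0.15.

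Contractile smooth muscle genes had a median of -0.27, with 17 of 19 below 0 (56.6% of all genes were). Pln, also a heart gene, was 3.29-fold higher. Myh11, the smooth muscle myosin, read 2049.8 on chow and 1369 on Western diet, 1.5-fold lower, with a second probe set at -0.73, and Smtn 138 on chow and 82.4 on Western diet, 1.67-fold lower. The classical markers Acta2 (-0.08), Cnn1 (-0.09) and Tagln (-0.18) lay nearer to 0. Myocd, the coactivator of this programme, had -0.40, and Tpm1 -0.48, with other probe sets at 1.75 and 0.25. Fibroblast genes lay slightly lower, 12 of 14 below 0 (56.6% of all genes were) and the median at -0.17. In the Ath29 pair the medians were 0.09 for smooth muscle, 0.05 for elastic fibre, -0.03 for collagen, 0.27 for proteoglycan and 0.12 for fibroblast genes. On the B6 Western array heart and fat signal was also the highest, and its part in the lower wall signal was not tested. Among matrix proteases and inhibitors Ctss alone was past 2-fold, with Mmp3 at 0.51, Timp1 at 0.21, Mmp2 at -0.31 and Mmp12 and Mmp13 below the filter.

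Endothelial genes had a median of -0.09 over 13, with 0 past 2-fold, the VEGF receptor Kdr at 0.96, Cdh5 at 0.12 and Vwf, which binds platelets, at -0.37. Leukocyte adhesion genes had a median of -0.03 over 14. The endothelial ligands Vcam1 and Icam1 read 1181 on chow and 1257 on Western diet and 508 on chow and 472 on Western diet respectively, and Selp, the platelet and endothelial selectin, 671 on chow and 445 on Western diet. Only the leukocyte integrin Itgb2 was past 2-fold, at 71.8 on chow and 169.5 on Western diet. On the log2 scale the endothelial members differed by 0.09, -0.11 and -0.59 and Itgb2 by 1.24.

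Stress and growth lists lay near the median of all genes. Medians were 0.06 for the unfolded protein response over 19 genes, 0.04 for heat shock over 14, 0.07 for cell cycle over 19 and -0.05 for ribosomal proteins over 22, each with 0 past 2-fold. Oxidative stress genes had a median of 0.12 over 18, with the glutathione transferase Gsta4 3.12-fold higher and the mitochondrial dismutase Sod2 at 0.93. Immediate early genes, induced by stress or flow within minutes, had a median of 0.02 over 23. Among them the nuclear receptor Nr4a1 read 429 on chow and 1065 on Western diet, 2.48-fold higher, and Fos 1456 on chow and 614 on Western diet, 2.37-fold lower. Clock genes had a median of -0.20 over 16. The clock output gene Dbp read 1032 on chow and 393 on Western diet, 2.63-fold lower, with a second probe set at -0.81, the repressor Nr1d1 had -0.90, Nfil3, which opposes Dbp, 0.82, and the core gene Arntl 0.03. The time of day at harvest is not given. Nerve and Schwann cell genes had a median of -0.24 over 9, with S100b, a glial calcium-binding protein, past 2-fold (1.05). Hepatocyte genes had a median of 0.35 over the 6 measured (0.071 with no filter), with 0 past 2-fold.

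Of the 15 lowest genes with both values above 27.4 only Casq1 and Dbp belong to a list. Camk4, a calcium-dependent kinase, read 140.5 on chow and 31.9 on Western diet, 4.41-fold lower. Igdcc4, an immunoglobulin superfamily gene, read 193 on chow and 63.5 on Western diet, 3.04-fold lower, with a second probe set at -1.59 (not exact). Ace, the angiotensin-converting enzyme, read 130.2 on chow and 45.2 on Western diet, 2.88-fold lower, but its other probe set gave -0.22. Ptprf, a receptor phosphatase, read 349 on chow and 126 on Western diet, with a second probe set at -0.97. Of these 4 genes only Igdcc4 was past 2-fold with 2 probe sets. Rimklb had -1.92, with another probe set at -0.10 (not exact), the zinc finger gene Zfp40 -1.59, with another at -0.70 (not exact), and Ecrg4 -1.31, with others at -0.59 and -0.91. Others of the 15 lowest, each read by 1 kept probe set, were D430019H16Rik (-1.72), 2600006K01Rik (-1.67), Capn6 (-1.51), Itih2 (-1.43), Zfp316 (-1.40) and C1qtnf6 (-1.37). Nap1l3 (at least -3.01 in size), 2900055J20Rik (-2.29), Hhip, a hedgehog inhibitor (-2.22), Stk25 (-2.14) and Ttll10 (-2.04) rest on Western values in the range of background. Among the highest genes outside all lists, Cyp2b10, a xenobiotic cytochrome P450, read 122 on chow and 970.4 on Western diet, 7.98-fold higher, with other probe sets at 2.58 and 2.60. Tmem182 read 52.8 on chow and 525 on Western diet and the kinase gene Sgk2 74.5 on chow and 487 on Western diet, while Actn2, a Z-disc protein (3.33), and A530053G22Rik (at least 2.99) start from background.

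The Ath29 pair of arrays shares none with the B6 pair. There, Western diet gave 156 genes past 2-fold upward (1.33%) and 100 downward (0.853%). At 2-fold, 29 genes were higher in both strains, which is 6.02% of the 482 B6 genes and 18.6% of the 156 Ath29 genes, and 1 gene, Igha, was lower in both. Of the 482 higher B6 genes a further 29 were lower in Ath29 mice (0.853% of all genes were). Of the 137 lower B6 genes 6 were higher in Ath29 mice (1.33% of all genes were). Some of these, such as Jchain, rest on values in the range of background. Of the 482 higher B6 genes 71.4% had an Ath29 difference below 0, against 43.8% of all genes. Split by list, 41 of 51 higher genes of muscle, fat or mitochondrial lists had an Ath29 difference below 0. So did 292 of the 386 higher genes in no list (75.6%) and 4 of 30 of immune lists. The median Ath29 difference in these parts was -0.39, -0.32 and 0.96, in that order. The opposite sign was thus not confined to the listed muscle, fat and mitochondrial genes. Genes in no list can also be muscle or fat genes, as Myom2 is, so this split cannot tell which tissue they come from. Across the 11718 genes, which are not independent replicates, Pearson's r of both differences was -0.19. Higher in both strains were, among others, Ptx3, Saa3, Fgl1, Hp, Cxcl1, Ccl8, Ccl9, Mpeg1, Gpnmb, Ctss, Abcg1, Ch25h and Apod. No difference between the strains was tested.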

How the data were processed

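The authors deposited 1 table of probe set intensity, and its range shows a linear scale. Biotin-labelled cRNA was made from 8 ug of total RNA by the Affymetrix protocol, per the labels. How the authors summarised, background-corrected and normalized the arrays was not given in the sources used here. Array medians were 27.95 on chow and 28.8 on Western diet in B6 mice, while those of the Ath29 arrays were 28.8 and 28.6. Of 45101 probe sets, 64 controls were left out. The platform annotation gave 1 symbol to 34945, several to 932 and none to 9160, and 34741 were matched to GRCm38.p6 by identifier. Probe sets with several symbols were left unnamed.

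Intensities were shifted to a common median on the log2 scale (factors 1.02, 0.992, 0.990 and 0.997), floored at the 25th percentile and filtered on the 4-array mean of log2 values (Python 3.11.15, pandas 2.3.3). The code was checked on simulated arrays. Named genes were the 15 highest and 15 lowest with both B6 values above the filter, the 5 highest and lowest of the others, and up to 8 members of each list by size, with further members of lists a result turns on. The members and lists were chosen with earlier results of these data known. Cpt1a, Cxcl1, Il6, Nppa, the genes below the filter, the pair Col4a3 and Col4a4 and those of the closing observations were named for their values or as known markers. Beside the alternatives listed first, counts over genes with both B6 values above the filter were added after the data were seen. Array number limits the precision.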

Additional observations from a re-analysis of the deposited data

Results flagged for a closer look

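Each result below has opposite signs in the diet comparisons of the strains, with 1 array per group, and the difference between the strains was not tested. Values are log2 differences, Western minus chow. Among list medians, that of red cell genes was 0.67 in B6 and -0.47 in Ath29 mice over 3 measured genes. These medians are Alas2 in B6 (0.67, with 0.19 in Ath29) and Epb42 in Ath29 (-0.47, not exact, with 0.68 in B6), Slc4a1 had -0.18 and -1.23, and with no filter the B6 median was 0.00. The median of fatty acid oxidation genes was 0.92 and -0.36, and that of brown fat genes 1.63 and -0.44. The oxidation gene Acot1 had 1.32 in B6 and -1.10 in Ath29 mice, Ucp3 2.43 and -1.35, the coactivator Ppargc1a 1.16 and -1.05, and the elongase Elovl3 3.02 and -1.51.

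Among muscle genes Myh6 had 4.45 in B6 and -1.80 in Ath29 mice, with all values above 27.4. Myl7 had 5.28 and -2.97, the latter a bound, since Ath29 Western lay below the floor. Mb had 4.74 and -1.49, the latter not exact, and the calcium-binding parvalbumin Pvalb 1.71 and -1.78, neither exact. Myl7 read 75.1 on the Ath29 chow array, above the 52.3 of B6 chow. Jchain, which joins secreted antibodies, had 2.37, a bound, and -2.26, with intensities of 8.93 on chow and 49.6 on Western diet in B6 mice and, on the Ath29 arrays, 154 and 32.2. Fos had -1.25 and 1.58, with 1456 and 614 in B6 mice and, on the Ath29 arrays, 180.2 and 539.7, so B6 chow was the highest array. Camk4 had -2.14 and 1.40, and 2900055J20Rik -2.29 and 1.90, neither exact.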

How the results depend on the processing

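No paired analysis was possible because each group has 1 array. The counts of 482 higher and 137 lower genes were 736 and 339 with no filter on dim genes, 261 and 36 with the filter at the 75th percentile, 1167 and 835 at 1.5-fold, 149 and 19 at 3-fold, and 388 and 82 over genes with both B6 values above 27.4. Under the other 9 settings for counts, scaling included, both stayed within 1.5 times. Of 398 list medians recomputed under alternatives 371 moved by less than 0.22, the usual SD between probe sets. With no filter the medians were 0.12 for B and plasma cell genes, 0.30 for mast cells, 0.00 for red cells, 0.13 for chemokines, 0.60 for the acute phase, 0.67 for MHC class II, 0.83 for skeletal muscle and 0.071 for hepatocytes. With the filter at the 75th percentile they were 0.077 for B and plasma cells, -0.65 for platelets, 2.14 for the acute phase, 0.22 for complement, 1.31 for MHC class II, 0.43 for interferon response and 0.049 for hepatocytes. With the filter on the B6 arrays alone they were 1.06 for mast cells, 0.22 for chemokines, 0.74 for the acute phase and 1.04 for skeletal muscle. With probe sets that may bind several transcripts left out they were -0.62 for collagens, -0.53 for T and NK cells, 1.57 for mast cells, 0.67 for MHC class II and 0.86 for oxidative phosphorylation. There Dgat1 reversed to -0.42, not exact. With the mean of a gene's probe sets they were -0.15 for T and NK cells and 1.22 for white fat, and with the floor at the 40th percentile 0.73 for skeletal muscle. The cause of these moves was not tested. Of the values of named genes 2940 moved by less than the spread and 73 by more. Dim genes near 27.4 limit the precision. Control probe sets also gave the ratio of signal at the 3′ end of a transcript to that at its 5′ end. For beta-actin it was 24.41 on B6 chow and 25.4 on B6 Western. For Gapdh it was 31.29 on B6 chow and 29.004 on B6 Western. Signal from the 5′ end was thus much the weaker for both controls. The part of this in the disagreement between probe sets of a gene was not tested.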

Other observations

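Genes outside the lists, named here after their values were seen, had these values, all above 27.4 on the B6 arrays, and they stand for no wider group. The beta-glucan receptor Clec7a read 143 on chow and 564 on Western diet in B6 mice, and the Ath29 arrays gave 212 and 487. The monocyte chemokine receptor Ccr2 read 93.4 on chow and 296 on Western diet, with log2 differences of 1.67 and 1.10 in the strains. Cd83, a surface protein of mature dendritic cells, had log2 differences of 1.66 and 1.14, the lectin Clec4n 1.15 and 1.12, and Ms4a6d 1.27 and 1.02. Each of these 5 genes was past 2-fold in both strains. Coro1a, an actin regulator of leukocytes, was 1.41 in B6 and 0.40 in Ath29 mice, and the tetraspanin Cd53 1.40 and 0.58.

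The FOXO1 corepressor Fcor had 2.06 in B6 and -1.03 in Ath29 mice, the adipogenesis gene Adig 1.91 and -0.90, the secreted factor Nrg4 1.78 and -1.07, and the FGF21 coreceptor Klb 1.64 and -0.71. Gpihbp1, which holds lipoprotein lipase on capillaries, had 1.71 and -0.84, and the lipase inhibitor Angptl4 1.65 and -0.59. Pck1, which makes glycerol precursors in fat, read 87.3 on chow and 362 on Western diet in B6 mice and, on the Ath29 arrays, 209 and 148.

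Among genes at least 2-fold lower in B6 mice, the transcription factor Snai2 read 1252 on chow and 563 on Western diet, the BMP and TGF-beta inhibitor Smad7 1817 on chow and 796 on Western diet, the Wnt antagonist Sfrp1 280.5 on chow and 133 on Western diet and the sodium-calcium exchanger Slc8a1 302 on chow and 129 on Western diet. Their Ath29 differences were -0.12, -0.47, 0.64 and 0.05 on the log2 scale. All genes here were picked by their values, so no count is given.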
